A study of Mus musculus with 41 samples.

Results

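The genes described here are 38 genes of the cell division cycle, taken by symbol from a table of read counts for 21249 genes in mouse endometriosis lesions. All 38 were found in the table. They were split by textbook role into 14 genes of the start of DNA replication (S phase) and 24 genes of mitosis, the separation of the copied chromosomes. The S phase genes comprise 8 that license replication origins, 3 of the replication machinery and its nucleotide supply, and 3 that control entry into S phase. Among the mitosis genes, 7 belong to the kinase, cyclin and transcription factor engine of entry into mitosis, 4 to the spindle checkpoint, 3 to the chromosomal passenger complex, 8 to the spindle, its motors and kinetochores, and 2 to the mitotic chromosome.

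A cell that divides first loads the MCM helicase onto replication origins, copies its DNA under the control of cyclins E and A, and then enters mitosis when cyclin B and its kinase Cdk1 become active. Transcripts of the first step are driven largely by E2F factors, whereas transcripts of mitosis peak later and depend on the FoxM1 and B-Myb complexes. In the uterus, the lining and its glands go through bursts of division under estrogen, and endometriosis lesions are fragments of that lining growing outside the uterus.

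Each lesion grew from a uterine punch of 4 mm glued to the peritoneal wall of a mouse 12 to 16 weeks old. From day 7 after grafting, 3 intraperitoneal injections of 1 µg interleukin-33 (IL-33), a cytokine that activates group 2 innate lymphoid cells (ILC2s), or of PBS were spread over 6 days. The 4 genotypes given IL-33, with 4 lesions each, were C57Bl/6J (wild type), Id2fl/fl (floxed controls), Nmur1iCre-eGFP (Cre controls) and Nmur1iCre-eGFP Id2fl/fl (deficient). The series' design calls the first 3 genotypes ILC2-competent and the last ILC2-deficient. In the deficient genotype the Cre under control of Nmur1, a receptor gene expressed by ILC2s, deletes Id2, a factor these cells need. Other deficient mice received PBS alone (n = 4), IL-33 and PBS (the group with added PBS, n = 4), or IL-33 after intraperitoneal transfer of 250000 (n = 4) or 120000 (n = 2) ILC2s. Wild-type mice also received 120000 ILC2s before IL-33 (n = 3). Lesion transfer, also under IL-33, placed Cre-control fragments into deficient mice and deficient fragments into Cre-control mice, with 4 lesions of each kind. The labels give the genotype of the fragment, and every other recipient was taken to share it.

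Library totals were 28.9 to 70.5 M counts (median 42.9 M), and the lowest count of any member in any library was 62, so counting error was small beside the spread between lesions. All 13 endometrial stroma markers had counts in every library, whereas 16 epithelium markers summed to between 23.5 and 3728 CPM (counts scaled to the library total). Of the 41 libraries, 4 held liver transcripts at 2.54% to 9.79% of their counts, and the others at most 0.0761%. These were 1 each of the wild-type, Cre-control and deficient groups with IL-33 and 1 wild-type library after ILC2 transfer. Nmur1 was at 0 to 0.496 CPM (median 0.0777) in the 18 deficient libraries without lesion transfer and at 0.0661 to 2.545 CPM (median 0.642) in the 15 libraries of the other genotypes. Both sets include lesions of mice given ILC2s. Id2 does not check the deletion in whole lesions, where other cells express it: it was at 36.6 to 83.1 and 28.9 to 73.4 CPM in the same sets. The numbers in the library names form series that partly coincide with the groups, so for most comparisons a series effect and a group effect cannot be told apart. Of the comparisons below, deficient against Cre-control lesions and 250000 ILC2s against added PBS were made within one series of names.

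Per kilobase of exon, the mean level over the 41 libraries was highest for Pcna, the sliding clamp of DNA polymerase, at 17.6 CPM. Mki67, the source of the proliferation marker Ki-67, followed at 11.3 CPM per kilobase, and Ttk, a checkpoint kinase gene, was lowest at 1.02. The median level was 4.30 CPM per kilobase for the 14 S phase genes and 2.77 for the 24 mitosis genes. The ratio of the highest to the lowest library in CPM was 12.6 for Cdc20, 12.3 for Ccnb1 and 11.2 for Bub1, but only 2.11 for Pcna, 2.25 for E2f1 and 2.56 for Mcm7. The 3 genes of the widest range were mitosis genes and the 3 of the narrowest S phase genes.

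Whether lesions of IL-33-treated deficient mice differed from those of competent mice was tested by contrasting the deficient group with the mean of the 3 competent genotypes. Of the 38 genes, 35 rose in deficient lesions and none fell, against a background of 6.24% of all 21249 genes called higher and 4.72% called lower (edgeR's quasi-likelihood test, Benjamini-Hochberg adjusted p under 0.05). All 24 mitosis genes rose, with a median log2 fold change of 1.44, and 11 of 14 S phase genes rose, with a median of 0.90. The median over all genes was -0.015. For 15 genes, 12 of mitosis and 3 of S phase, every one of the 4 deficient lesions lay above every one of the 12 competent lesions, which held for 1.3% of all genes. The third deficient lesion was the lowest: it failed to exceed all competent lesions in 23 of the 38 genes, and the others in 1 or 2 each. Whole lesions were sequenced, so more dividing cells and more of these RNAs per cell cannot be told apart.

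**Figure D1:**
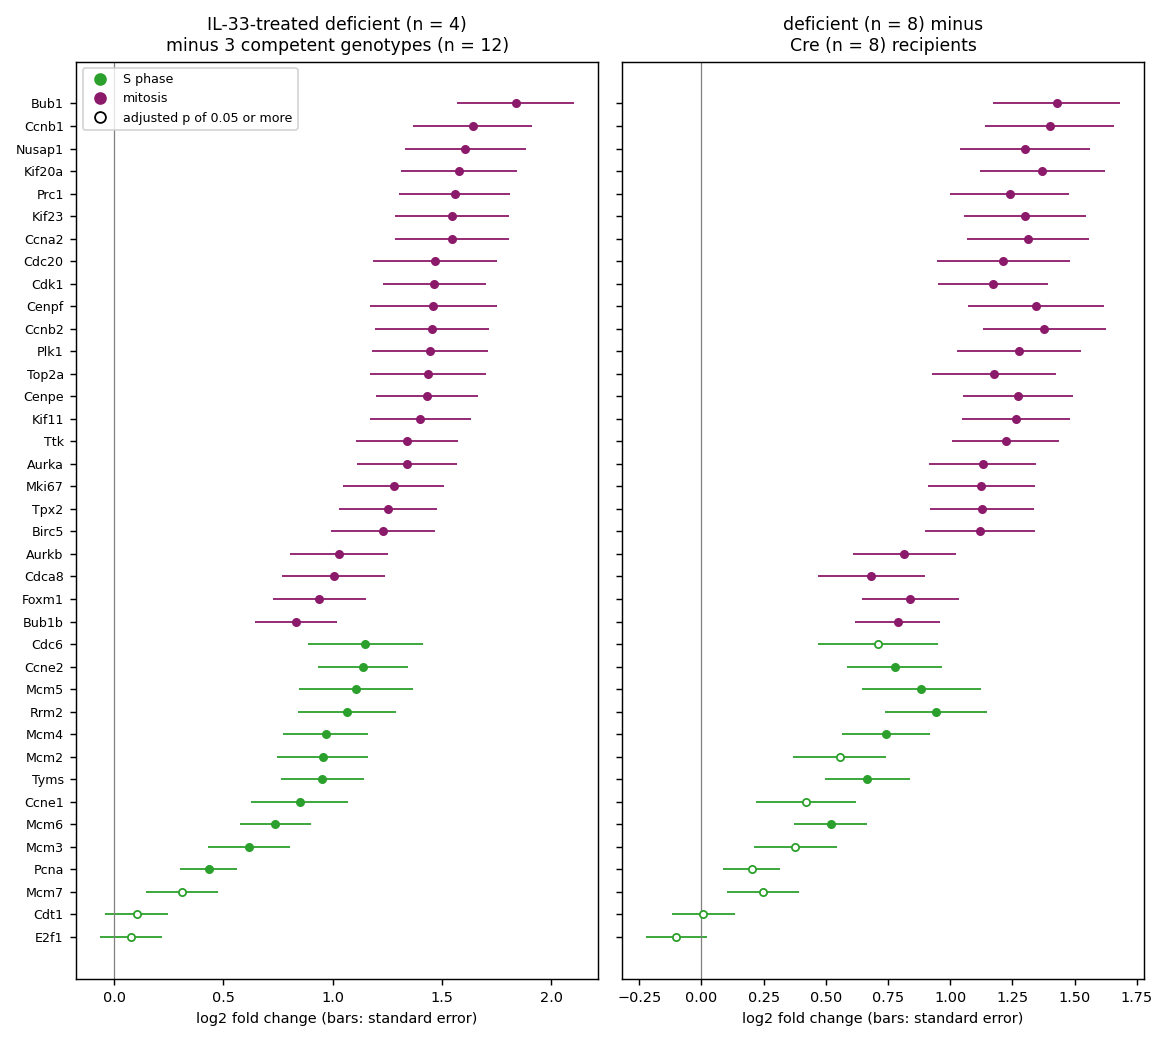
Log2 fold change (horizontal axis) of each of the 38 genes with its standard error (bars), for IL-33-treated deficient against competent lesions on the left and deficient against Cre-control recipients on the right; filled points have an adjusted p under 0.05. The 24 mitosis genes lie between 0.83 and 1.84 on the left, and Mcm7, Cdt1 and E2f1 are the 3 open points there.

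The origin licensing genes encode the ring-shaped MCM helicase (Mcm2 to Mcm7) and its loaders Cdc6 and Cdt1. Mcm2 was at 34.9, 33.7, 21.2 and 43.9 CPM in the 4 deficient lesions and at 9.63 to 27.5 (median 17.2) in the 12 competent ones, a log2 fold change of 0.95 ± 0.21 (adjusted p = 0.00323). For Mcm5 the values were 26.8, 29.4, 14.7 and 33.5 CPM against 6.36 to 21.2 (median 11.7), a change of 1.11 ± 0.26 (adjusted p = 0.00573). Cdc6 stood at 11.3, 9.53, 4.78 and 11.1 CPM against 1.93 to 6.59 (median 4.14), or 1.15 ± 0.26 (adjusted p = 0.00483). In each of these 3 genes, the third deficient lesion lay within the competent range and the other deficient lesions above it. Among the other subunits, Mcm3, Mcm4 and Mcm6 rose by 0.62, 0.97 and 0.74 on the log2 scale. Mcm7 did not pass the test, at 0.31 ± 0.16 (adjusted p = 0.237). Cdt1 (chr8:122568015-122573554, GRCm38) was at 16.2, 14.7, 11.1 and 15.5 CPM in deficient and 10.6 to 16.9 (median 13.3) in competent lesions. Its groups overlapped throughout, with a difference of 0.10 ± 0.15 (adjusted p = 0.718) that has a standard error larger than itself.

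Of the replication genes, Pcna (chr2:132249162-132253314) was at 53.1, 50.7, 36.1 and 54.7 CPM in deficient and 29.0 to 47.2 (median 36.7) in competent lesions, a log2 fold change of 0.43 ± 0.13 (adjusted p = 0.0277). Rrm2, the small subunit of ribonucleotide reductase, which makes the building blocks of DNA, was at 22.4, 23.9, 14.9 and 26.4 against 5.16 to 12.7 (median 11.02) CPM. Its change was 1.07 ± 0.22 (adjusted p = 0.00249). All 4 deficient lesions exceeded all 12 competent ones in Rrm2, but not in Pcna, where the third deficient lesion was among the competent ones. Tyms, which makes thymidylate, rose by 0.95 ± 0.19 (adjusted p = 0.00147).

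The 3 genes that control entry into S phase gave different values. Ccne2, 1 of the 2 cyclin E genes, was at 8.10, 11.4, 6.06 and 8.88 CPM in deficient lesions, all above the competent 2.61 to 4.86 (median 4.003), a change of 1.14 ± 0.21 (adjusted p = 0.000701). The other cyclin E gene, Ccne1, was at 6.02, 6.005, 3.28 and 4.93 against 1.75 to 3.58 (median 2.93) CPM and changed by 0.85 ± 0.22 (adjusted p = 0.0118), with the third deficient lesion inside the competent range. E2f1 (chr2:154559407-154569892), the founding E2F transcription factor, was at 11.98, 8.79, 9.24 and 8.97 CPM against 5.997 to 11.8 (median 9.44). The deficient lesions lay within or just above the competent range, and the difference of 0.077 ± 0.14 (adjusted p = 0.787) did not pass the test.

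Of the engine of mitotic entry, Ccnb1 (chr13:100778650-100786570), the cyclin B1 gene, was at 21.7, 21.6, 10.5 and 27.7 CPM in deficient lesions and 2.26 to 10.4 (median 6.83) in competent ones, a log2 fold change of 1.64 ± 0.27 (adjusted p = 0.000308). Its kinase Cdk1 was at 20.1, 21.05, 12.4 and 28.4 against 3.92 to 10.5 (median 7.10) CPM, or 1.46 ± 0.24 (adjusted p = 0.000243). Ccna2, the gene of cyclin A2, which acts in both S phase and mitosis, was at 35.0, 46.5, 20.2 and 51.3 against 5.47 to 19.04 (median 14.2) CPM, or 1.55 ± 0.26 (adjusted p = 0.000344). In all 3 genes the 4 deficient lesions lay above the 12 competent ones, with the third deficient lesion closest to them. Plk1, a kinase of mitotic entry and spindle assembly, was at 14.6, 14.2, 7.85 and 22.98 against 2.80 to 8.08 (median 5.47) CPM and changed by 1.45 ± 0.26 (adjusted p = 0.000764). Foxm1, the transcription factor of the G2 and mitosis genes, was at 21.99, 28.0, 14.8 and 27.5 against 6.05 to 17.8 (median 12.3) CPM and changed by 0.94 ± 0.21 (adjusted p = 0.00448). The third deficient lesion overlapped the competent range for both. Ccnb2 (1.45) and the kinase gene Aurka (1.34) rose by similar amounts on the log2 scale.

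The spindle checkpoint holds chromosome separation until every chromosome is attached, and its gene Bub1 (chr2:127801122-127831865) had the largest change of the 38. Bub1 was at 14.3, 18.8, 9.56 and 22.2 CPM in deficient and 1.98 to 6.74 (median 4.52) in competent lesions, a log2 fold change of 1.84 ± 0.27 (adjusted p = 7.72e-05), or 3.57-fold. Cdc20, the activator of the anaphase-promoting complex that the checkpoint restrains, was at 19.4, 17.8, 9.26 and 27.9 against 2.21 to 10.7 (median 6.92) CPM, or 1.47 ± 0.28 (adjusted p = 0.00123). The deficient lesions did not overlap the competent ones in Bub1, whereas 1 did in Cdc20. Ttk rose by 1.34 ± 0.23 (adjusted p = 0.000471), and Bub1b, with the smallest change among the mitosis genes, by 0.83 ± 0.19 (adjusted p = 0.00441). In the chromosomal passenger complex, which corrects faulty attachments, the kinase gene Aurkb was at 15.3, 16.7, 9.98 and 18.3 against 3.53 to 11.4 (median 7.19) CPM, or 1.03 ± 0.22 (adjusted p = 0.00331). Birc5 (survivin) was at 14.7, 11.9, 7.71 and 15.8 against 2.64 to 9.58 (median 5.55) CPM, or 1.23 ± 0.24 (adjusted p = 0.00123). The third deficient lesion lay within the competent range for both, and the third passenger gene, Cdca8, rose by 1.00 ± 0.24 (adjusted p = 0.00579).

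All 8 spindle genes rose, by 1.25 (Tpx2) to 1.61 (Nusap1) on the log2 scale. Kif11, the motor that pushes the spindle poles apart, was at 36.6, 38.02, 22.4 and 46.5 CPM in deficient lesions, all above the competent 6.74 to 20.6 (median 12.96), a change of 1.40 ± 0.23 (adjusted p = 0.000308). Kif20a rose by 1.58 ± 0.26 (adjusted p = 0.000331), Nusap1 by 1.61 ± 0.28 (adjusted p = 0.000471) and Prc1, which bundles microtubules between the separating chromosomes, by 1.56 ± 0.25 (adjusted p = 0.000252). On the chromosomes themselves, Mki67 (chr7:135689784-135716361) was at 157.6, 191, 125 and 239 CPM against 31.6 to 102 (median 73.1), or 1.28 ± 0.23 (adjusted p = 0.000701). Top2a, the topoisomerase that untangles sister chromosomes, was at 125.6, 136, 69.2 and 155.7 against 19.2 to 70.1 (median 45.4) CPM, or 1.44 ± 0.27 (adjusted p = 0.000836). The lowest deficient lesion stood above all competent ones in Mki67 and just below the highest of them in Top2a.

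**Figure D2:**
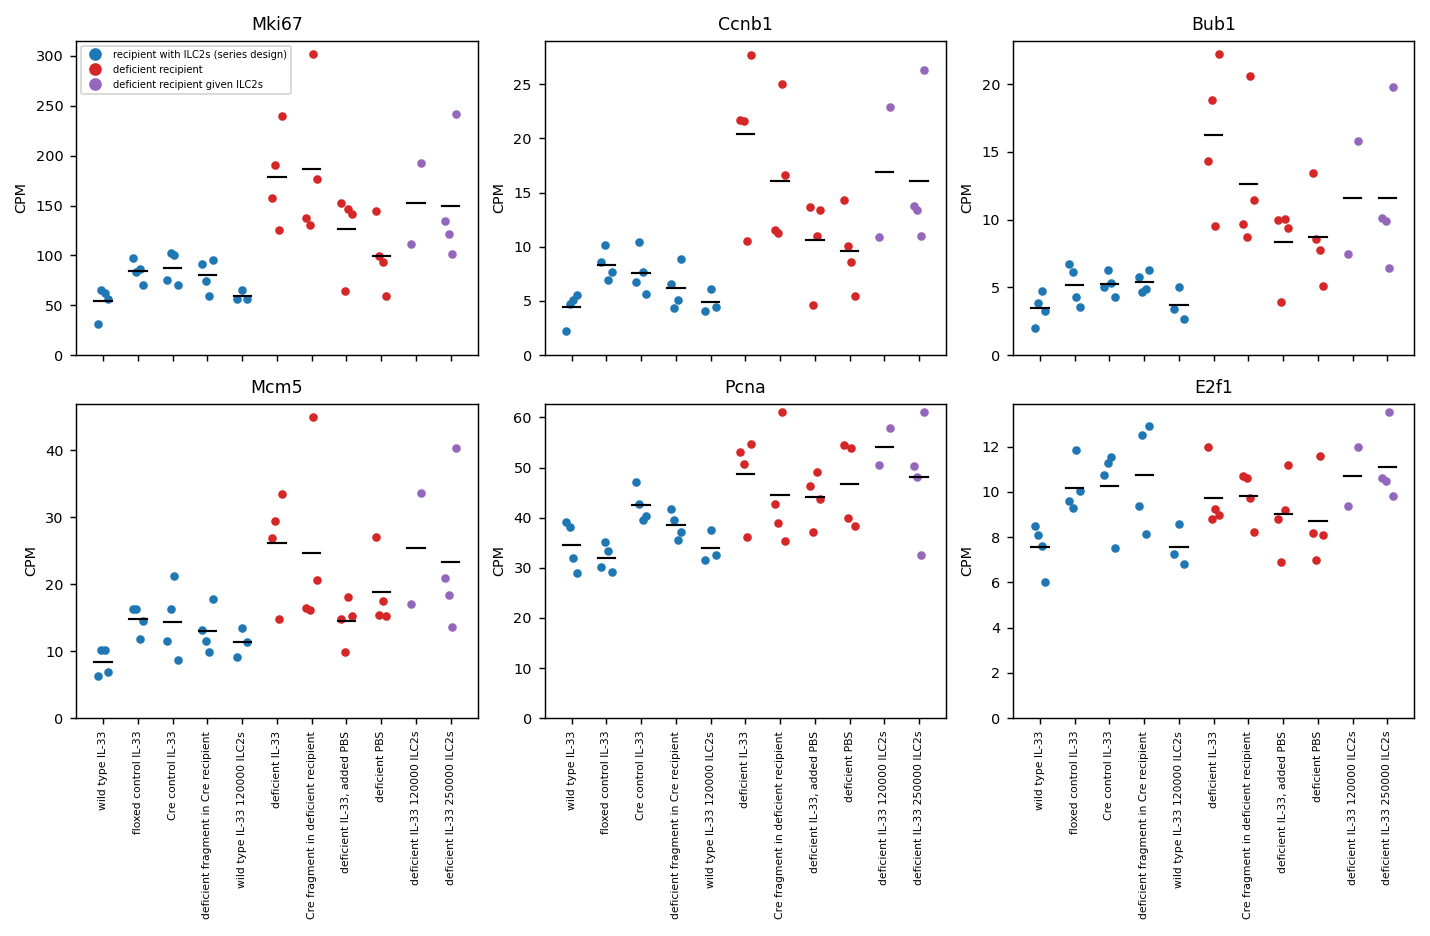
Level in CPM (vertical axis, from 0) of 6 members in each of the 41 libraries by group (horizontal axis), with group means as bars. Mki67 reaches 302 CPM in a Cre-control fragment in a deficient mouse and is at 64.8 CPM in the lowest lesion with added PBS, and the points of E2f1 lie between 6.00 and 13.5 CPM.

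In each lesion, the mean log2 CPM over the 14 S phase genes and over the 24 mitosis genes was compared. The mitosis mean was 4.57, 4.70, 3.83 and 5.06 in the 4 deficient lesions and 2.19 to 3.78 in the 12 competent ones, and these ranges did not overlap. The S phase mean was 4.44, 4.44, 3.78 and 4.54 against 3.13 to 3.91, and the third deficient lesion overlapped. The S phase mean minus the mitosis mean was -0.14, -0.26, -0.049 and -0.52 in the deficient lesions. In the competent lesions it was -0.023 to 0.97 (median 0.37), above every deficient lesion. Where zero falls on this difference depends on the genes in the 2 lists, so only its shift between groups is read. These means are descriptions over chosen genes and were not tested.

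**Figure D3:**
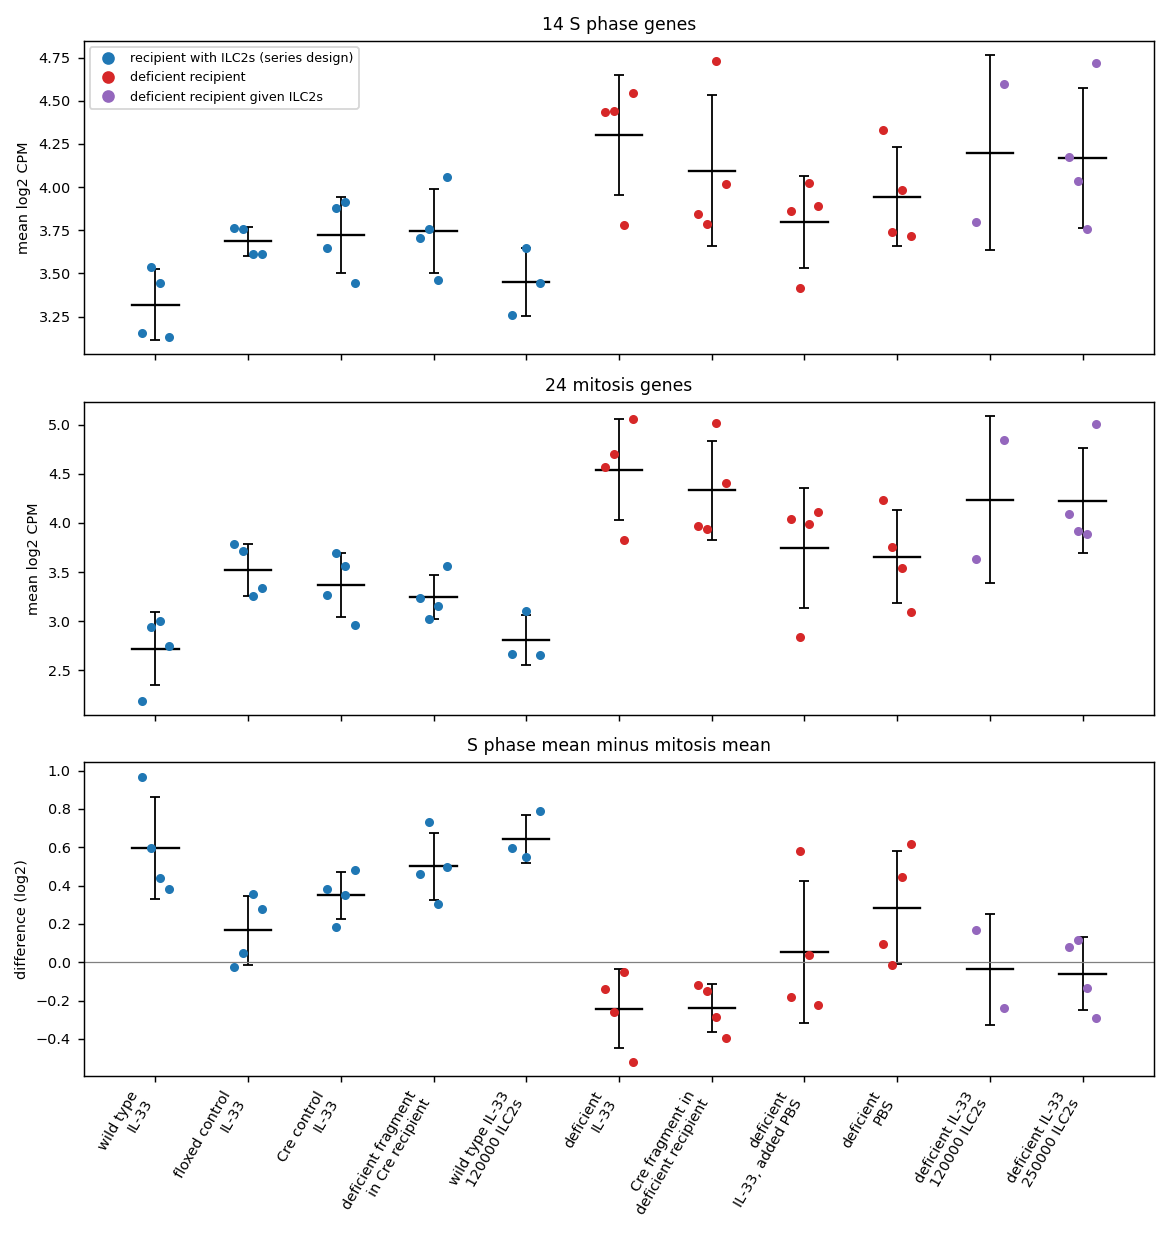
Mean log2 CPM of the 14 S phase genes, of the 24 mitosis genes, and their difference (vertical axes) in each library by group (horizontal axis), with group mean and SD as bars. In the lowest panel, deficient lesions with IL-33 alone and Cre-control fragments in deficient mice lie at -0.52 to -0.049, both groups of Cre-control recipients at 0.18 to 0.73, and the deficient mice with added PBS at -0.22 to 0.58, across both ranges.

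Each competent genotype was also set against the deficient lesions by itself, for wild type and floxed controls in contrasts added after the data had been seen. The deficient lesions had 34 genes higher than wild type (4.94% of all genes), 20 higher than floxed controls (4.69%) and 22 higher than Cre controls (1.63%). None of the 38 was called lower in any of the 3 (3.66%, 3.86% and 2.20% of all genes in the same order). Against the Cre controls, which share the series of library names, the medians were 0.69 for S phase and 1.297 for mitosis. The largest changes called there were Bub1 at 1.63 ± 0.36 (adjusted p = 0.0111), Nusap1 at 1.44 ± 0.37 (adjusted p = 0.0267) and Ccnb1 at 1.42 ± 0.37 (adjusted p = 0.0261). That count fell to 0 without the libraries that hold liver transcripts and 0 when only these 2 groups entered the fit. It was 4, 11, 12 and 4 without Cre-control replicates 1 to 4, and 4 and 1 without deficient replicates 2 and 4. Against floxed controls the largest called were Bub1 at 1.65 ± 0.36 (adjusted p = 0.00711), Nusap1 at 1.46 ± 0.37 (adjusted p = 0.0147) and Cdk1 at 1.33 ± 0.31 (adjusted p = 0.0096). The count of 20 became 5 and 2 without deficient replicates 2 and 4, 8 and 4 without floxed replicates 3 and 4, 7 without the libraries that hold liver transcripts, and 0 with only these 2 groups in the fit. It was 7 with the mean of the epithelial keratins Krt8 and Krt18 as a covariate, 5 with Krt8, 8 with Krt18 and 8 with the 16 epithelium markers. Of all genes, 782, 755, 849 and 736 were higher with these covariates. Against wild type the largest called were Bub1 at 2.23 ± 0.37 (adjusted p = 0.00037), Ccnb1 at 2.21 ± 0.38 (adjusted p = 0.000452) and Cdc20 at 2.20 ± 0.39 (adjusted p = 0.000709), and leaving out single libraries gave 32 to 35 calls. For the fits with fewer libraries or groups, the share of all genes called is not given here. Their counts are not read against a background.

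The competent genotypes were also compared with one another. The S phase mean was 3.13 to 3.54 in wild-type lesions against 3.44 to 3.91 in the other controls, and the mitosis mean 2.19 to 3.01 against 2.96 to 3.78. Of the 38 genes, 37 had a log2 fold change below zero in wild type against Cre and floxed controls, with medians of -0.29 for S phase and -0.72 for mitosis. None passed the edgeR test there (2.65% of all genes did), and DESeq2 called 5 lower, among 1207 genes it called in either direction. For 25 members the unadjusted p was under 0.05. The number of all genes past that cut is not given here, so the 25 are not read against a background. The largest difference was that of Cdc20, at -1.10 ± 0.34 (adjusted p = 0.0691). Cre against floxed controls gave no member in edgeR (0.329% of all genes called) or DESeq2. There 1 member had an unadjusted p under 0.05, also without the number of all genes past that cut.

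Further lists of cell cycle genes outside the 38 were examined in the same contrast. Of 33 other genes of kinetochores and spindle, 32 rose, with a median log2 fold change of 1.33, among them Cep55 at 1.62 ± 0.24 (adjusted p = 7.72e-05), Hmmr at 1.70 ± 0.25 (adjusted p = 9.4e-05), Mad2l1 at 1.69 ± 0.25 (adjusted p = 9.67e-05) and Anln at 1.46 ± 0.23 (adjusted p = 0.000179). Of 13 condensin and cohesion genes, 10 rose (median 0.97), led by the condensin subunit gene Ncapg2 at 0.84 ± 0.13 (adjusted p = 0.00013) and Esco2 at 1.80 ± 0.29 (adjusted p = 0.000243). Of 25 replication fork genes, 15 rose (median 0.59), including Rrm1, the large subunit of ribonucleotide reductase, at 0.80 ± 0.12 (adjusted p = 0.000119), Dbf4 at 0.93 ± 0.17 (adjusted p = 0.000773) and Uhrf1 at 1.35 ± 0.28 (adjusted p = 0.0021). None of these 3 lists held a gene that fell.

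Regulators upstream of the cycle were read next. Of 14 genes of the E2F, DREAM and MYB complexes, 5 rose, among them Tfdp1 at 0.44 ± 0.093 (adjusted p = 0.00274) and the repressor E2f7 at 0.88 ± 0.19 (adjusted p = 0.00343), and Tfdp2 fell by 0.47 on the log2 scale. Of 9 genes of G1 cyclins, their kinases and pocket proteins, Ccnd1 rose by 0.94 ± 0.26 (adjusted p = 0.0171) and Rbl1 by 0.48 ± 0.15 (adjusted p = 0.0351). Ccnd2 (0.075) and Ccnd3 (0.11) were not called. Of 7 CDK inhibitor genes, only Cdkn2c was called, higher at 0.52 ± 0.17 (adjusted p = 0.0493), and Cdkn1a (p21) was at -0.52 ± 0.26 (adjusted p = 0.206). The remaining inhibitors were at -0.092 (Cdkn1b), -0.49 (Cdkn1c), 0.27 (Cdkn2a), 0.51 (Cdkn2b) and 0.10 (Cdkn2d). Of 12 genes, Trp53 (p53) itself and its targets, 2 rose (Zmat3 and Pmaip1) and 1 fell (Bbc3), with a median of -0.11.

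Markers of other cell types were read in the same libraries. Of 11 T cell markers 1 rose (median 0.54), and their summed level was 67.5 to 89.8 CPM in deficient against 37.2 to 82.0 CPM in competent lesions. Of 16 epithelium markers 2 rose (median 1.43), at 493 to 3728 against 53.8 to 2368 CPM. Of 7 adipocyte markers 3 rose, at 19.7 to 737 against 29.7 to 214 CPM, the highest being the third deficient lesion, and of 10 macrophage markers 1 rose, at 2495 to 4349 against 1734 to 4464 CPM. None of the T cell or macrophage markers was at 0 in any library, while Foxa2, Pax8, Esrp1 and Wfdc2 of the epithelium list and Lep of the adipocyte list were at 0 in at least 1. The 12 skeletal muscle markers summed to 3937 to 42160 CPM (median 12830) in deficient lesions, highest in the third. In competent lesions they summed to 65.0 to 49860 CPM (median 25760). The part of the T cell, adipocyte, macrophage and skeletal muscle markers in the result was not tested.

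Because the mitosis genes moved together, their promoters were compared by sequence. CCAAT boxes, which NF-Y binds, and the CHR element TTTGAA, a site of the DREAM and MuvB complexes, are known from promoters of mitosis genes, and E2F sites from promoters of S phase genes. RefSeq promoters (GRCm38.p6) matched 31 of the 38 genes. In the 250 bases before the start, on either strand, CCAAT was found in 17 of 19 mitosis promoters (89.5%), 7 of 12 S phase promoters (58.3%) and 33.8% of 32851 promoters in all. TTTGAA was found in 6 of 19 (31.6%), 1 of 12 (8.3%) and 16.0%. An E2F site, searched as TTTCCCGC, TTTGGCGC, TTTCGCGC or TTTGCCGC, was found in 1 of 19 (5.3%), 4 of 12 (33.3%) and 1.9%.

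To show where the motifs lie in single promoters, the 150 bases before the start are given for 3 mitosis genes and for 3 S phase genes, 1 of them without a match, on GRCm38.p6 from RefSeq and on the strand of the gene. Capitals mark every motif found, and a motif on the opposite strand appears as its reverse complement.
Cdk1, chr10:69352913-69353062, minus strand: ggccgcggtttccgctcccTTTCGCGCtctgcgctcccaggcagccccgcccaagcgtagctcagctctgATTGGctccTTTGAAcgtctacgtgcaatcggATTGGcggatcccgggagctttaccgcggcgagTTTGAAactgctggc
Ccnb2, chr9:70421555-70421704, minus strand: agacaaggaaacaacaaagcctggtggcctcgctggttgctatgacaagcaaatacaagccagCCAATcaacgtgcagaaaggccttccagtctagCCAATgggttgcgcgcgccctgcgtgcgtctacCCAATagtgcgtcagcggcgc
Top2a, chr11:99024190-99024339, minus strand: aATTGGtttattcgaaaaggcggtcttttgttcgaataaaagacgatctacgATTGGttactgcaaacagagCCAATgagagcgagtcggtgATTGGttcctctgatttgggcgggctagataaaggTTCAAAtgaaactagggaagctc
Mcm6, chr1:128359706-128359855, minus strand: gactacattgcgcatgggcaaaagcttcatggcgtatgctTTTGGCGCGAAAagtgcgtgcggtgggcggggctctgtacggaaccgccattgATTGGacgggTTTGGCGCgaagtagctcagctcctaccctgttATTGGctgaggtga
Mcm5, chr8:75109359-75109508, plus strand: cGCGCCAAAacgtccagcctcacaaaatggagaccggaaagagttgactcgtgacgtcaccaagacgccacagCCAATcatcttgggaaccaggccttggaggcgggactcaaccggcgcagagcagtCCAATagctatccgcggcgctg
Cdt1, chr8:122567865-122568014, plus strand: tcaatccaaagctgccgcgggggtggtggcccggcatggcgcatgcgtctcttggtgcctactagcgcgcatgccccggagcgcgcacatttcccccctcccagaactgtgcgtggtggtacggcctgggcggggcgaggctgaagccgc
The Cdk1 window holds 2 TTTGAA elements, 2 CCAAT boxes and 1 E2F site, that of Ccnb2 3 CCAAT boxes, and that of Top2a 4 CCAAT boxes and 1 TTTGAA element. The Mcm6 window holds 3 E2F sites, 2 of which overlap on opposite strands, and 2 CCAAT boxes, and that of Mcm5 1 E2F site and 2 CCAAT boxes. The Cdt1 window holds none of these letters. In the 250 bases searched, Mcm7, not called between genotypes, had 2 CCAAT boxes and 1 E2F site, whereas Tyms, Ccne1, Birc5 and Nusap1, all called, had none of the motifs. Cdt1 and E2f1, which were not called, had none there either. A match describes the sequence only.

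Lesion transfer separates the genotype of the fragment from that of the mouse that carries it. Of the 38 genes, 30 were higher in the 8 lesions of deficient recipients than in the 8 of Cre-control recipients and none was lower (5.02% of all genes were called higher and 6.29% lower). All 24 mitosis genes rose, with a median log2 fold change of 1.23, and 6 of 14 S phase genes, with a median of 0.54. For 16 genes, 15 of mitosis and Rrm2, every deficient recipient lay above every Cre-control recipient, which held for 0.626% of all genes. This contrast shares 8 of its 16 lesions, those without transfer, with the comparison of deficient and competent mice.

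Mki67 was at 137, 130.3, 302 and 177 CPM in Cre-control fragments carried by deficient mice, and at 91.5, 74.7, 58.9 and 95.3 CPM in deficient fragments carried by Cre-control mice. The 4 Cre-control lesions in their own genotype were at 75.4, 102, 101 and 70.8 CPM. Every Cre-control fragment in a deficient recipient lay above every Cre-control lesion in its own genotype, and all 8 deficient recipients above all 8 Cre-control recipients. Ccnb1 was at 11.6, 11.2, 24.99 and 16.6 and 6.53, 4.39, 5.07 and 8.84 CPM in the 2 transfer groups and at 6.72, 10.4, 7.63 and 5.61 CPM in Cre controls. Bub1 was at 9.67, 8.75, 20.6 and 11.4 and 5.79, 4.69, 4.87 and 6.25 CPM, and at 5.04, 6.25, 5.32 and 4.32 CPM in Cre controls. For both genes, as for Mki67, the third Cre-control fragment in a deficient recipient was the highest of its group. The test over both fragment types gave 1.43 ± 0.26 (adjusted p = 0.000472) for Bub1, 1.40 ± 0.26 (adjusted p = 0.000655) for Ccnb1, 1.38 ± 0.25 (adjusted p = 0.000479) for Ccnb2 and 1.13 ± 0.22 (adjusted p = 0.000886) for Mki67.

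Among the S phase genes, Rrm2 was at 15.98, 15.8, 39.9 and 20.3 CPM in Cre-control fragments of deficient recipients and at 11.7, 12.8, 9.20 and 14.7 CPM in deficient fragments of Cre-control recipients, a recipient change of 0.94 ± 0.21 (adjusted p = 0.00289). Mcm5 was at 16.5, 16.2, 44.98 and 20.7 and 13.2, 11.5, 9.82 and 17.7 CPM, with a recipient change of 0.88 ± 0.24 (adjusted p = 0.0147), and its groups overlapped. Pcna was at 42.7, 38.9, 61.1 and 35.3 and 41.8, 39.5, 35.5 and 37.2 CPM, a difference of 0.20 ± 0.11 (adjusted p = 0.274). Mcm4, Mcm6, Tyms and Ccne2 rose, by 0.74, 0.52, 0.67 and 0.78 on the log2 scale. The 8 not called were Pcna, Mcm2 (0.56, adjusted p = 0.0524), Mcm3 (0.38), Mcm7 (0.25), Cdc6 (0.71, adjusted p = 0.0539), Cdt1 (0.0078), Ccne1 (0.42) and E2f1 (-0.10). As each of the 16 libraries was left out in turn, Mcm2 and Cdc6 passed in 5 of 16 fits each. Cdca8, a called mitosis gene, passed in 9 of 16, with its highest adjusted p (0.0956) without the third Cre-control fragment of a deficient recipient. That lesion was the highest of its group in 37 of the 38 genes.

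The mitosis mean was 3.97, 3.94, 5.02 and 4.41 in Cre-control fragments of deficient recipients and 3.24, 3.02, 3.16 and 3.56 in deficient fragments of Cre-control recipients. The S phase mean minus the mitosis mean was -0.12, -0.15, -0.29 and -0.39 and 0.46, 0.73, 0.31 and 0.50 in the same groups. Over both fragment types it was -0.52 to -0.049 in the 8 deficient recipients and 0.18 to 0.73 in the 8 Cre-control recipients. The 2 kinds of recipient did not overlap in either measure.

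For the genotype of the fragment, no member passed the edgeR test (0.00471% of all genes did) and DESeq2 also called none. Only Ccne2 had an unadjusted p under 0.05, with a log2 difference of 0.47 ± 0.19 (adjusted p = 1). The medians were 0.048 for S phase and 0.024 for mitosis, and the standard errors were 0.115 to 0.27. Ccne2 differed by more than its standard error and did not pass, so differences above these values may also go uncalled.

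The recipient comparison was also made within each fragment type, in 2 contrasts that share no library and were added after the data had been seen. Each set transferred lesions against lesions grown in their own genotype, so recipient genotype and lesion transfer cannot be told apart within a fragment type. In Cre-control fragments 8 genes rose, Rrm2 and 7 of mitosis (2.37% of all genes), with medians of 0.43 for S phase and 1.06 for mitosis. In deficient fragments 24 rose, 2 of S phase and 22 of mitosis (1.85% of all genes), with medians of 0.63 and 1.38. Of the 38 genes, 36 were above zero in both, and 7, all of mitosis, were called in both (87.5% and 29.2% of the calls in each). Every deficient recipient lay above every Cre-control recipient for 19 genes in Cre-control fragments (4.34% of all genes) and 23 in deficient fragments (5.53%). The largest called were Bub1 at 1.27 ± 0.36 (adjusted p = 0.0402), Kif11 at 1.25 ± 0.31 (adjusted p = 0.0198) and Ccnb2 at 1.23 ± 0.35 (adjusted p = 0.0394) in Cre-control fragments. In deficient fragments they were Ccnb1 at 1.71 ± 0.37 (adjusted p = 0.00751), Cdc20 at 1.70 ± 0.38 (adjusted p = 0.0099) and Kif20a at 1.70 ± 0.36 (adjusted p = 0.00644). Cdc20, at 0.72 in Cre-control fragments, had the largest gap between the 2 contrasts. The test of the difference between them called none of the 38 (0.414% of all genes were called). No member had an unadjusted p under 0.05 there. By its design this test is also that of lesions in their own genotype against transferred lesions.

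**Figure D4:**
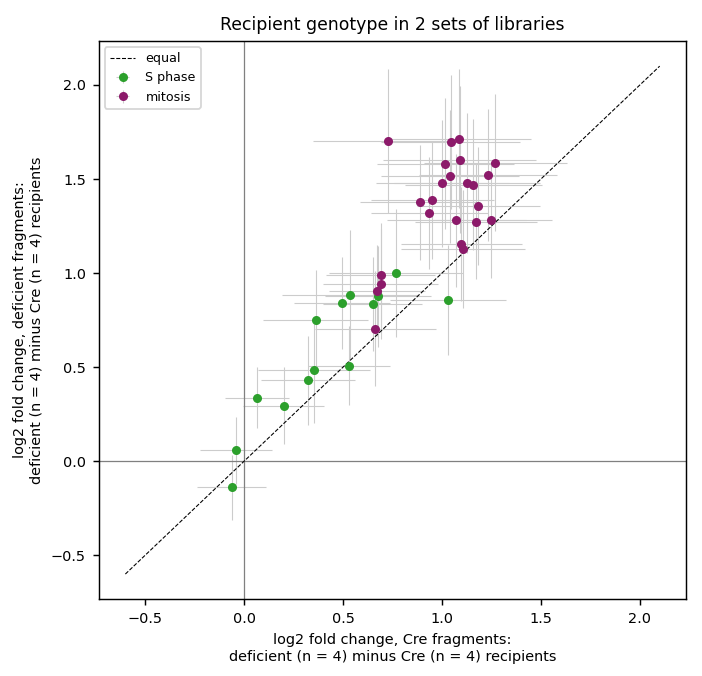
Log2 fold change of each of the 38 genes between deficient and Cre-control recipients in Cre-control fragments (horizontal axis) and in deficient fragments (vertical axis), with standard errors as grey lines and a dashed line of equality. The 2 axes share no library, and 36 of the 38 genes lie above zero on both. On each axis the recipients also differ in lesion transfer.

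With 4 lesions in each group, the counts within a fragment type depended on single libraries. In Cre-control fragments 0 genes remained called without Cre-control replicate 1 or 4, 2 without replicate 2 and 1 without replicate 3, and 0 without replicate 3 of the deficient recipients. The count was 1 without the libraries that hold liver transcripts, and it was 0 in both fragment types with only the 2 groups in the fit. In deficient fragments 2 were called without deficient replicate 4 and 6 without replicate 2 of the Cre-control recipients. The share of all genes called in fits with fewer libraries or groups is not given here, so their counts are not read against a background. Replicate 3 of the Cre-control fragments in deficient recipients also had the highest T cell marker sum of these 16 lesions, at 564.5 CPM. The T cell sum was 67.5 to 89.8 CPM in deficient fragments of deficient recipients and 41.1 to 173 CPM in Cre-control recipients. Of 11 T cell markers 3 rose in deficient recipients (median 1.02). Of 7 adipocyte markers 3 rose, at sums of 19.7 to 737 against 22.4 to 214 CPM, and of 10 macrophage markers 1 rose and 2 fell, at 2195 to 4387 against 2696 to 5671 CPM. None of 16 epithelium markers was called, at 37.2 to 3728 against 88.5 to 2368 CPM. Without that replicate, 27 of the 38 genes were called over both fragment types, and the part of T cells, adipocytes and macrophages in the result was not tested.

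Other cell cycle genes were called in the recipient contrast as follows. Of 33 genes of kinetochores and spindle 31 rose, among them Hmmr at 1.43 ± 0.24 (adjusted p = 0.000209), Cep55 at 1.28 ± 0.22 (adjusted p = 0.000351) and Knl1 at 1.38 ± 0.24 (adjusted p = 0.000436). Condensin and cohesion had 10 of 13 higher, led by Ncapg2 at 0.68 ± 0.12 (adjusted p = 0.000239), and the replication fork 10 of 25, led by Rrm1 at 0.60 ± 0.11 (adjusted p = 0.000544). Of the E2F, DREAM and MYB genes 3 of 14 rose, with E2f7 at 0.85 ± 0.18 (adjusted p = 0.00186). None of the 9 G1 genes was called, with Ccnd1 at 0.62 ± 0.24 (adjusted p = 0.0886), Ccnd2 at 0.046 and Ccnd3 at 0.027. Cdkn2c was again the 1 CDK inhibitor called, at 0.53 ± 0.15 (adjusted p = 0.022), with Cdkn1a at -0.50 ± 0.22 (adjusted p = 0.136). Of the 12 genes of p53 and its targets 2 fell, Sesn2 at -1.08 ± 0.18 (adjusted p = 0.000193) and Bbc3.

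Within the deficient genotype, IL-33 was compared with PBS, using the same 4 IL-33-treated lesions as the comparisons with competent lesions. Mki67 was at 144, 99.4, 93.5 and 59.6 CPM with PBS and 157.6, 191, 125 and 239 CPM with IL-33, and the groups overlapped. Aurka, the spindle pole kinase gene, had the lowest unadjusted p, 0.0014, with a log2 difference of 1.06 ± 0.30 (adjusted p = 0.616). None of the 38 genes passed in edgeR or DESeq2 (0.00941% of all genes did in edgeR), and no member had every IL-33 lesion above every PBS lesion (2.04% of all genes). All 38 lay above zero, with medians of 0.35 for S phase and 0.89 for mitosis. An unadjusted p under 0.05 was found for 25 of the 38, 24 of mitosis and Rrm2, and for 1436 of all 21249 genes. Krt8 and Krt18 were 1.87 ± 1.07 and 1.42 ± 0.96 higher with IL-33 on the log2 scale, neither past the test.

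Transfer of 250000 ILC2s into deficient mice was compared with added PBS. Mki67 was at 134.7, 121.5, 101 and 241 CPM after transfer and 153, 64.8, 146 and 142 CPM with added PBS. Top2a was at 93.3, 73.5, 71.8 and 176 against 76.1, 31.6, 81.1 and 78.2 CPM. Cdt1 was the 1 member in which the groups did not overlap (2.7% of all genes), at 14.99, 13.7, 13.4 and 18.3 against 8.87, 8.05, 11.1 and 11.1 CPM, or 0.63 ± 0.18 (adjusted p = 0.567). No gene of the 21249 passed in edgeR (0%), and DESeq2 called no member. An unadjusted p under 0.05 was found for 5 members, a count without the share of all genes beside it and not read as a result. The medians were 0.41 for S phase and 0.49 for mitosis. Krt8 was 2.40 ± 1.10 (adjusted p = 0.571) and Krt18 1.95 ± 0.98 (adjusted p = 0.574) higher after transfer on the log2 scale, neither past the edgeR test. With the mean of both keratins in the model, the medians were 0.23 and 0.21.

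The smaller transfer also gave no member in either tool (0% of all genes in edgeR) and none with an unadjusted p under 0.05. In deficient mice, Mki67 was at 111.6 and 193 CPM after 120000 ILC2s, beside 157.6, 191, 125 and 239 CPM with IL-33 alone, so 1 lay below and 1 within the latter range. The medians were -0.070 for S phase and -0.24 for mitosis. In wild-type mice it was at 56.5, 65.0 and 56.2 CPM against 31.6, 65.8, 62.5 and 56.6 CPM, with medians of 0.084 and 0.10. With 2 and 3 lesions after transfer, the standard error for Mki67 was 0.37 and 0.32. Differences well above their standard error may also go uncalled, as that of Aurka did between IL-33 and PBS.

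The group with added PBS was set against IL-33 alone, and all 38 genes had a log2 difference below zero, with medians of -0.56 for S phase and -0.79 for mitosis, and none passed in edgeR or DESeq2 (0.0141% of all genes in edgeR), although 29 had an unadjusted p under 0.05, as did 3486 of all genes. Ccnb1 was at 13.7, 4.59, 10.999 and 13.4 CPM against 21.7, 21.6, 10.5 and 27.7 CPM, and the groups overlapped. In 2 members, Cdt1 and Aurkb, every lesion with added PBS lay below every one with IL-33 alone (5.85% of all genes). Aurkb was at 9.76, 4.50, 9.53 and 9.75 CPM with added PBS. Replicate 2 was the lowest of the group in all 38 genes. Krt8 was at 1.42, 2.17, 10.6 and 3.82 CPM with added PBS and 63.8, 83.3, 23.4 and 220.5 CPM without it, and the 16 epithelium markers summed to 23.5 to 192 against 493 to 3728 CPM. For Krt8, Krt18 and the summed markers the groups did not overlap. Neutrophil markers summed to 160.0 to 384 CPM with added PBS against 514 to 2953 CPM, and smooth muscle markers to 2117 to 2348 against 2573 to 5757 CPM, both lower with added PBS and without overlap. B and plasma cell markers, at 459 to 1283 against 186 to 293 CPM, and endothelium markers, at 917.5 to 1050.0 against 707 to 892 CPM, were higher with added PBS without overlap. No marker of these 5 lists passed the edgeR test in this comparison. Skeletal muscle markers, at 25880 to 55880 with added PBS against 3937 to 42160 CPM, overlapped. The part of the cell types other than epithelium was not tested. Against competent lesions, the group with added PBS had 6 genes higher and Cdt1 lower (6.17% of all genes higher and 5.46% lower), with medians of 0.29 and 0.63. The T cell markers summed to 87.5 to 97.6 CPM with added PBS and to 37.2 to 82.0 CPM in the 12 competent lesions, without overlap, 1 of 11 being called higher, and their part in these calls was not tested. The largest called there were Bub1 at 0.88 ± 0.28 (adjusted p = 0.0371), Kif11 at 0.83 ± 0.24 (adjusted p = 0.0225) and Prc1 at 0.79 ± 0.26 (adjusted p = 0.0437), and Cdt1 was at -0.45 ± 0.15 (adjusted p = 0.0475). These 7 calls became 0, 12, 0 and 1 without its replicates 1 to 4, 4 without Cre-control replicate 1, 3 without floxed replicate 4, 3 and 4 without wild-type replicates 1 and 4, and 3 without the libraries that hold liver transcripts. The share of all genes called in those fits is not given here.

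Epithelium varies between lesions, and Krt8 and Krt18, keratins of the simple epithelium that lines uterine glands, were used as its measure. Krt8 was at 63.8, 83.3, 23.4 and 220.5 CPM in the deficient lesions and 1.62 to 124 (median 25.9) CPM in the 12 competent ones, overlapping, and Krt18 at 41.8, 78.1, 23.4 and 103.6 against 2.93 to 117 (median 25.4) CPM. The differences were 1.42 ± 0.79 (adjusted p = 0.262) and 0.78 ± 0.74 (adjusted p = 0.553) on the log2 scale. The mean log2 CPM of both then entered the model as a covariate beside the 11 groups. Among the libraries that hold liver transcripts, this mean was 6.16 in wild-type replicate 4 and 7.53 in wild-type replicate 3 after 120000 ILC2s, where the mean over the 16 epithelium markers was 3.40 and 4.54. The highest Krt18 levels of the competent lesions, 117 and 91.5 CPM, were also in libraries with liver transcripts, and the part of liver in the keratin levels was not tested. With the mean of the 16 markers as the covariate instead, 33 members were called between deficient and competent lesions and 29 between recipients.

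Among lesions of the same group, 37 of the 38 genes had a slope on keratin above zero, with a median of 0.096 log2 units per log2 unit of keratin for S phase and 0.12 for mitosis. The slope passed the test upward for 11 members and downward for E2f1, against 14.9% and 12.7% of all genes. The steepest slopes called were those of Kif23 (0.18 ± 0.050, adjusted p = 0.0101), Ccnb2 (0.17 ± 0.049, adjusted p = 0.0121) and Cenpf (0.16 ± 0.061, adjusted p = 0.0491). Mcm7, not called between genotypes, had the lowest adjusted p of all, with a slope of 0.11 ± 0.028 (adjusted p = 0.00395), and E2f1 had -0.070 ± 0.026 (adjusted p = 0.0467). The 12 calls ranged from 4 to 20 as single libraries were left out. They fell to 4 without Cre-control fragment 1 or 3 of the deficient recipients, replicate 4 after 250000 ILC2s or wild-type replicate 1, and to 5 and 7 without deficient replicates 3 and 4. Without Cre-control replicate 3 or replicate 3 after 250000 ILC2s they were 6, and without either deficient replicate or wild-type replicate 2 after 120000 ILC2s they were 20. The libraries that hold liver transcripts left 17 when removed. The share of all genes called in these smaller fits is not given here.

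**Figure D5:**
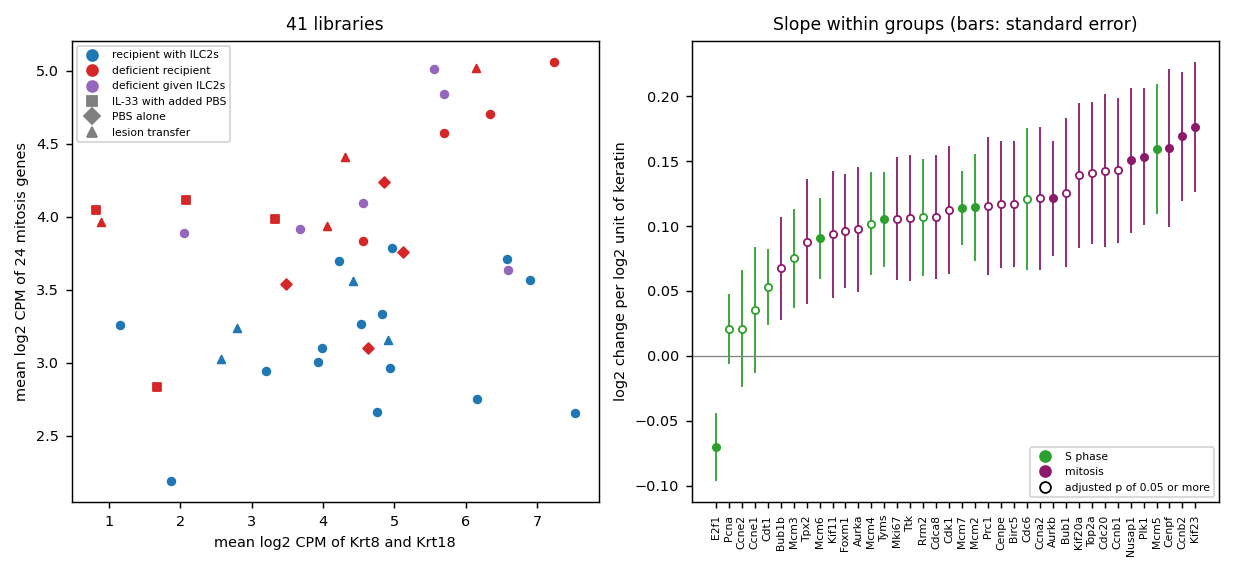
Left, mean log2 CPM of the 24 mitosis genes (vertical axis) against that of Krt8 and Krt18 (horizontal axis) in the 41 libraries, coloured by recipient; right, the slope on keratin within groups for each of the 38 genes with its standard error, filled where the adjusted p was under 0.05. The slopes run from -0.070 (E2f1) to 0.18 (Kif23), and the mitosis means in the left panel from 2.19 to 5.06.

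With keratin held equal in the model, 33 of the 38 genes were still higher in deficient than in competent lesions, 9 of S phase and 24 of mitosis (4.74% of all genes). All 33 were among the 35 called without it, and Mcm3 and Pcna were lost. The medians were 0.77 for S phase and 1.19 for mitosis, beside 0.90 and 1.44 without keratin. Between recipients, 29 genes were called (5.11% of all genes), with medians of 0.47 and 1.15, and Cdca8 was lost. Keratin moved the counts more within each fragment type. In Cre-control fragments, Krt8 was -0.31 ± 1.04 and Krt18 -1.28 ± 0.96 in deficient against Cre-control recipients, neither past the test. There the 8 calls became 21 (3.09% of all genes). In deficient fragments, Krt8 was 2.62 ± 1.10 and Krt18 1.94 ± 0.97, also not past the test. There the 24 calls became 2, Ccnb1 and Kif20a (0.499% of all genes). The mitosis medians with keratin in the model were 1.19 and 1.10 in these 2 contrasts, and the S phase medians 0.55 and 0.43.

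The group with added PBS had Krt8 at -3.01 ± 1.04 (adjusted p = 0.0543) and Krt18 at -2.80 ± 0.93 (adjusted p = 0.0458) against competent lesions. With keratin as a covariate, 20 of the 38 genes were higher there than in competent lesions (3.95% of all genes), 4 of S phase and 16 of mitosis, in place of 6. The medians became 0.52 and 0.98. Mki67 was at 1.04 ± 0.25 (adjusted p = 0.0104), Kif11 at 1.06 ± 0.26 (adjusted p = 0.0114) and Bub1 at 1.19 ± 0.30 (adjusted p = 0.0133), and Cdt1 was no longer called lower. Against IL-33 alone, the medians with keratin in the model were -0.21 for S phase and -0.27 for mitosis, beside -0.56 and -0.79 without it. The covariate was read from the same libraries and differed between these groups, so the genotype and keratin cannot be fully told apart in them.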

How the data were processed

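Whole lesions were profiled by RNA sequencing in 41 libraries of 11 groups, with 2 to 4 per group. The deposited table holds raw counts of reads per gene for 21249 genes, made by the authors. Trimmomatic, STAR, HTSeq, edgeR and limma and the build GRCm38 are named per the submitters' processing notes, while the annotation and the strand setting of the counting are not given in the sources used here. Genes that overlap another on the opposite strand may therefore share reads. Totals of 28.9 to 70.5 M counts limit the precision less than the spread between lesions.

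All 41 libraries entered 1 model of 11 group means in edgeR 4.0.16 (R 4.3.3, limma 3.58.1) with TMM scaling and the robust quasi-likelihood test. Contrasts were adjusted by Benjamini-Hochberg over all genes, and a gene was called at an adjusted p under 0.05. Standard errors were taken from the fold change and its F statistic. No filter on low counts was applied. Phase means used log2 CPM with a prior count of 2, and the keratin covariate was the mean log2 CPM of Krt8 and Krt18. The pipeline was tested on simulated data. Alternatives were RLE scaling, DESeq2 1.42.0, a filter of CPM of at least 1 in at least 4 libraries (18570 genes left), a replicate block, only the groups compared, no libraries with over 1% liver transcripts, other epithelial covariates, and leaving out each library.

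Library values are given for 21 members and both keratins. Also named were the 3 members of largest fold called in each direction, members not called where over 30 were called, up to 4 genes of lowest adjusted p per further list, and any CDK inhibitor or cyclin D gene. The members and lists were chosen with earlier results of these data known. The labels do not say whether replicates of a group came from separate mice, and p-values then cover only the spread between lesions, which may be technical. Replicates differed well beyond sampling noise in all 58 pairs within groups. Same-numbered libraries of different groups deviated together no more than others (mean correlation 0.0094 and 0.0041), so the numbers were not used as pairs. Promoter sequences and their build, GRCm38.p6, are from RefSeq.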

Additional observations from a re-analysis of the deposited data

Results flagged for a closer look

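In groups of 4 lesions, 225 values were searched for a lesion far from the other members of its group, and 17 were found, where chance gives about 1 in 20. Several came from the same lesion, and the phase means are made from the same genes, so the 17 are not independent. With added PBS, replicate 2 lay below the rest of its group in the mitosis mean (2.835 against 3.99 to 4.11 log2 CPM), Mki67 (64.78 against 141.8 to 152.6 CPM), Top2a (31.56), Bub1 (3.955), Aurkb (4.504), Plk1 (3.378), Kif11 (13.11) and Rrm2 (8.777 CPM). Among lesions after 250000 ILC2s, replicate 4 lay above the rest in Birc5 (13.79), Plk1 (17.67), Foxm1 (34.4) and Cdc6 (13.23 CPM). The third Cre-control fragment in a deficient recipient was high in Mcm5 (44.98 against 16.15 to 20.68 CPM) and Cdc6 (12.69 against 4.958 to 6.067 CPM).

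Of the IL-33-treated deficient lesions, replicate 3 had a low S phase mean (3.782 against 4.44 to 4.54 log2 CPM), and replicate 1 was high in E2f1 (11.98 against 8.793 to 9.236 CPM). Floxed-control replicate 4 was low in Rrm2 (9.449 against 11.41 to 11.69 CPM).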

How the results depend on the processing

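The counts of members called kept within 1.5 times for deficient against competent lesions (30 to 35 as single libraries were left out), for recipients (27 to 32) and for deficient against wild type (32 to 35). Contrasts with no call kept 0 under every alternative tried for fragment genotype, IL-33, ILC2 transfers, added PBS, Cre against floxed controls, and the recipient and fragment interaction. Others moved, and the cause was not tested. Counts given without a number of all genes beside them are not read against a background. Deficient with added PBS against competent had 7 calls. It had 3 without the liver libraries, 12 with only the groups compared, and 20, 22, 16 and 23 with Krt8 and Krt18, Krt8, Krt18 and 16 epithelium markers as covariate (0 to 12 without single libraries). Of all genes, 840, 812, 847 and 881 were higher with these covariates. Deficient against Cre controls had 22, and 0 both without the liver libraries and with only the groups compared (1 to 25). Against floxed controls it had 20, then 7 and 0 in those fits, and 7, 5, 8 and 8 with the 4 covariates (2 to 27). Wild type against the other controls had 0, then 1 with each keratin covariate and 5 in DESeq2 (0 to 1). Of all genes, 975, 993 and 971 were called in either direction with the keratin covariates, and 1207 in DESeq2. Recipients in Cre-control fragments had 8, then 1 and 0 in the same fits, 21, 20, 21 and 22 with the covariates and 19 in DESeq2 (0 to 9). Of all genes, 657, 647, 684 and 667 were higher with the covariates, and DESeq2 called 1482 in either direction. In deficient fragments there were 24, then 0 with only the groups compared and 2, 0, 2 and 0 with the covariates (2 to 28). Of all genes, 106, 105, 110 and 69 were higher with the covariates. The keratin slope had 12, then 7 for Krt18 alone and 19 in DESeq2 (4 to 20).

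With the replicate block, which the labels do not show to pair lesions, recipients in Cre-control fragments had 3 calls and the keratin slope 4. Other counts with the block were 35 for deficient against competent, 29 for recipients, 5 with added PBS, 17 against Cre controls, 17 against floxed controls, 34 against wild type and 22 in deficient fragments.

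Cdt1 changed sign near zero. It was -0.00068 on the log2 scale with Krt8 as covariate between deficient and competent lesions, and -0.034, -0.0505, -0.016 and -0.055 with the 4 covariates between recipients.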

Other observations

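The 3 lesions of highest mitosis mean came from 3 groups: replicate 4 of deficient mice with IL-33 (5.06 log2 CPM), the third Cre-control fragment in a deficient recipient (5.02) and replicate 4 after 250000 ILC2s (5.01).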
